A study of Mus musculus with 10 samples.

Results

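F3, which encodes tissue factor, and 6 regulators of the proteases of clotting and of plasmin were examined in bulk RNA-seq of mouse cortex. The 7 genes, F3, Tfpi, Plat, Serpine2, Serpini1, F2r and Thbd, were chosen from the same contrast that is described here, since F3 was among the genes past the threshold of the fit across all genes. Their differences between the groups are therefore given as a description. Where it is said whether one of them passed the threshold of the fit across all genes, that outcome belongs to the choice of the genes and supports nothing further. They are 7 of the 53700 gene identifiers in the deposited counts, and all 7 were among the 19268 genes whose total over the libraries was above 10 counts. Cortices came from 10 female mice aged 4 months. The 5 control libraries, labelled Camk2a-cre WT and named 5XFAD here, and the 5 libraries labelled Camk2a-cre cKO, named 5XFAD;Neu cKO, share the 5XFAD transgenes, which are human genes with mutations of familial Alzheimer's disease under mouse Thy1 sequence. In 5XFAD;Neu cKO mice, floxed Idol is removed by Cre under the Camk2a promoter, which acts mainly in excitatory neurons of the forebrain, so that the deletion is aimed at neurons and not at glia or vessels. The controls were littermates, and the labels do not say whether they carried the floxed alleles or Cre.

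Tissue factor is a membrane protein that starts clotting by binding factor VII, and in the brain it is known from astrocytes. TFPI shuts off this start, and thrombomodulin (Thbd), on endothelium, turns thrombin towards the anticoagulant protein C. The protease tPA (Plat) makes plasmin, which dissolves fibrin, and in the brain it also acts at synapses. Protease nexin-1 (Serpine2) is a serpin that traps thrombin and plasminogen activators, neuroserpin (Serpini1) is the serpin of neurons that traps tPA, and PAR1 (F2r) is the receptor through which thrombin signals to cells.

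QuantSeq libraries, which read each transcript near its 3′ end, were sequenced. A level is given here as CPM, a gene's share of the counts in its library, per 1000000 counts and after TMM scaling, and because the reads come from the 3′ end it needs no division by transcript length to compare genes. Values of single libraries are listed below in the order of replicates 1 to 5, which are names and were not taken to pair animals across groups. Counted reads ranged from 4320504 to 7466192 in 5XFAD libraries and from 5148499 to 7246659 in 5XFAD;Neu cKO libraries, and mitochondrial genes took 20.9% to 25.1% and 20.2% to 24.7% of them. Mylip, which encodes IDOL, was counted 45 to 108 times per 5XFAD library and 50 to 148 times per 5XFAD;Neu cKO library, at 11.2 ± 2.27 CPM and 14.8 ± 4.90 CPM (SD, n = 5), and so was not lower in the group labelled as its knockout (log2 fold change 0.39, standard error (SE) 0.25, adjusted p = 0.777 by the quasi-likelihood test of edgeR, adjusted over all genes tested after Benjamini and Hochberg). Whether the counted 3′ end lies in the deleted part is not given in the sources used here, so these counts check the labels only in part. Groups are therefore named by their labels. The filter on low counts was passed by 7 of 7 excitatory neuron markers and 12 of 12 astrocyte markers. It was also passed by 4 of 4 choroid plexus and 5 of 5 meninges markers, so passing it does not identify the tissue. Of 11 microglial markers tested 4 passed the threshold in edgeR, beside 0.218% of all genes tested, and all 11 were lower in the 5XFAD;Neu cKO group. The summed level of the list was 291 to 364 CPM against 410.2 to 624 CPM. Of 5 red cell markers 2 passed in edgeR and were higher, while DESeq2 called 0 and gave 4 of the 5 no adjusted p. The summed level of the red cell list was 46.9 to 211 CPM against 6.34 to 51.4 CPM, ranges that overlapped. All 8 oligodendrocyte markers were lower, of which 1 passed in edgeR and 5 had an unadjusted edgeR p under 0.05, beside 7.95% of all genes tested. The lists for neurons, mural cells, oligodendrocyte precursors, platelets, meninges, choroid plexus and liver had 0 markers past the threshold in edgeR or DESeq2. However, DESeq2 gave no adjusted p to 5 of 7 mural, 4 of 6 precursor, 2 of 2 platelet and 5 of 5 meninges markers tested. The same held for 3 of 4 choroid plexus, 1 of 2 liver and 1 of 7 excitatory neuron markers. At an unadjusted edgeR p under 0.05 there were 1 of 7 excitatory and 2 of 6 inhibitory neuron markers, beside 7.95% of all genes tested. Fewer cells of a type and less RNA per cell cannot be told apart in bulk tissue.

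The promoter of F3 is shown because F3 is the member whose level moved most. RefSeq windows, from 250 bases before to 50 after the annotated start, were found for 5 of the 7 genes, while Plat and Thbd had none. The window of F3 lies on chromosome 3 of GRCm38.p6, at chr3:121723287-121723586 on the plus strand. It is printed 5′ to 3′, with matches to TGANTCA, the motif of AP-1, and to GGAGTTTCC, an NF-kB motif, in capitals:
F3 promoter: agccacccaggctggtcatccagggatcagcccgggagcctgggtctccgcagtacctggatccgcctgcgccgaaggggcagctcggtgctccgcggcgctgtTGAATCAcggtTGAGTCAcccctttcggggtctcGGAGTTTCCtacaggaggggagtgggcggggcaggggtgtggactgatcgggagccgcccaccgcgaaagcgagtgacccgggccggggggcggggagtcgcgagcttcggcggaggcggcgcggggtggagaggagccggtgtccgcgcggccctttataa

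Both strands were searched, and the matches to the different motifs did not overlap. The 2 AP-1 matches of F3 begin 146 and 135 bases before the annotated start, and the NF-kB match 112 bases before it. Where transcription of F3 starts in these libraries was not measured, so distances from the true start may differ. Of all 32851 mouse windows of this length, 7.81% hold TGANTCA and 0.323% hold GGAGTTTCC. The share of GGAGTTTCC is that of 1 fixed run of letters, and other forms of the NF-kB motif were not searched. It therefore does not measure how unusual the match in F3 is. The Sp1 motif GGGCGG occurred 3 times in the F3 window and in 35.7% of all windows. Among the other members, F2r held 1 match to TGANTCA, and Serpine2, Serpini1 and the 2 windows of Tfpi held none. A match is a run of letters and not a measured site, and no binding or promoter activity was measured in these libraries.

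F3 (ENSMUSG00000028128, chromosome 3 of GRCm39 from 121516610 to 121528820, plus strand) was more than doubled in mean level in the libraries labelled 5XFAD;Neu cKO. The counts were 70, 25, 61, 27 and 20 in the 5XFAD group and 94, 70, 156, 94 and 130 in the 5XFAD;Neu cKO group. As levels these were 13.6, 5.87, 8.29, 5.03 and 4.49 CPM against 17.6, 12.9, 20.5, 15.8 and 18.7 CPM. Of the 5XFAD;Neu cKO libraries, 4 lay above every 5XFAD library. The groups overlapped only through 5XFAD replicate 1, the highest of its group, and 5XFAD;Neu cKO replicate 2, the lowest of its own. The mean was 17.1 ± 2.90 CPM against 7.45 ± 3.72 CPM (SD, n = 5), a log2 fold change of 1.19 (SE 0.26), or 2.28-fold. Gm43823, annotated on the opposite strand over the start of F3, had 35 counts in all 10 libraries beside 747 for F3. Gm64338, a long noncoding RNA gene on the opposite strand from 121510082 to 121552210, spans all of F3 and has no identifier in the deposited counts. Reads of such pairs cannot be told apart where strand was not used, so the 35 counts set no bound on reads from the opposite strand. The spread was wider in 5XFAD, where the SD was 49.9% of the mean and counting alone would give 17.8%, than in 5XFAD;Neu cKO, where these values were 17.0% and 9.97%.

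**Figure D1:**
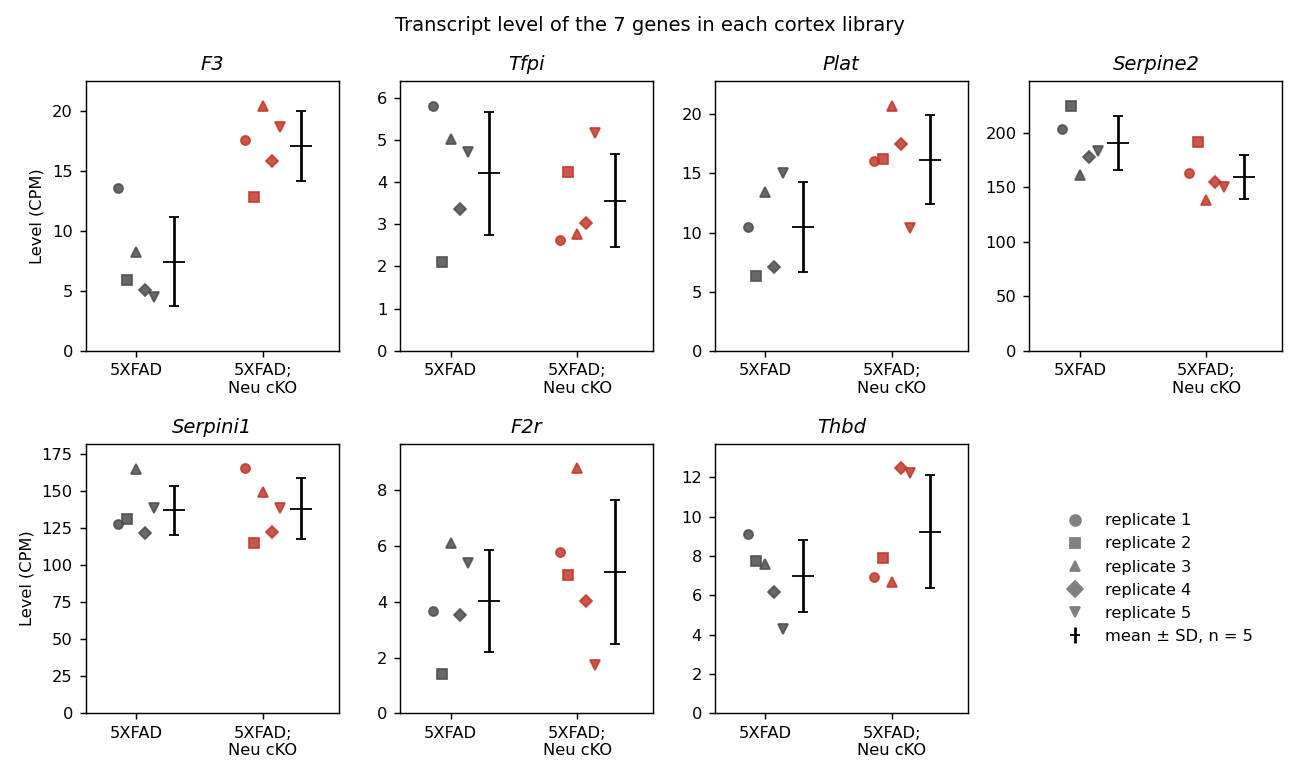
Level of each of the 7 genes in CPM (vertical axis, from 0, a scale of its own per gene) in 5 libraries labelled 5XFAD (grey) and 5 labelled 5XFAD;Neu cKO (red), with the symbol giving the replicate number and bars the mean ± SD. For F3 and for Plat, 4 of the 5 red points lie above all grey points, and for Serpine2 3 lie below all of them. For Tfpi, Serpini1, F2r and Thbd most of the red points lie among the grey ones.

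F3 was the only one of the 7 genes past an adjusted p of 0.05 in edgeR, which is 1 of 7 where 0.218% of the 19268 genes passed, and it ranked 29 of the 42 genes past it. This count repeats the choice of the genes. None of the 7 had groups that did not overlap in CPM, a pattern seen in 1.3% of all genes tested. With DESeq2 0 of the 7 passed, where 1.25% of the genes with an adjusted p did, and 5 of the 7, F3 among them, received none because its filter on mean counts set them aside. Without that filter, a setting added after seeing the data, F3 passed in DESeq2 too, at a log2 fold change of 1.19 (SE 0.29).

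The call for F3 depended on single libraries. F3 was chosen from the contrast with all libraries, so the direction it kept in every fit adds no support. In the 10 fits that each left out 1 library, its log2 fold change lay between 1.06, when 5XFAD replicate 5 was omitted, and 1.51, when 5XFAD replicate 1 was. F3 passed in 4 of these fits. It was not past the threshold without 5XFAD replicate 2, 4 or 5 or without 5XFAD;Neu cKO replicate 3, 4 or 5, where the log2 fold changes were 1.12, 1.07, 1.06, 1.11, 1.22 and 1.15.

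**Figure D2:**
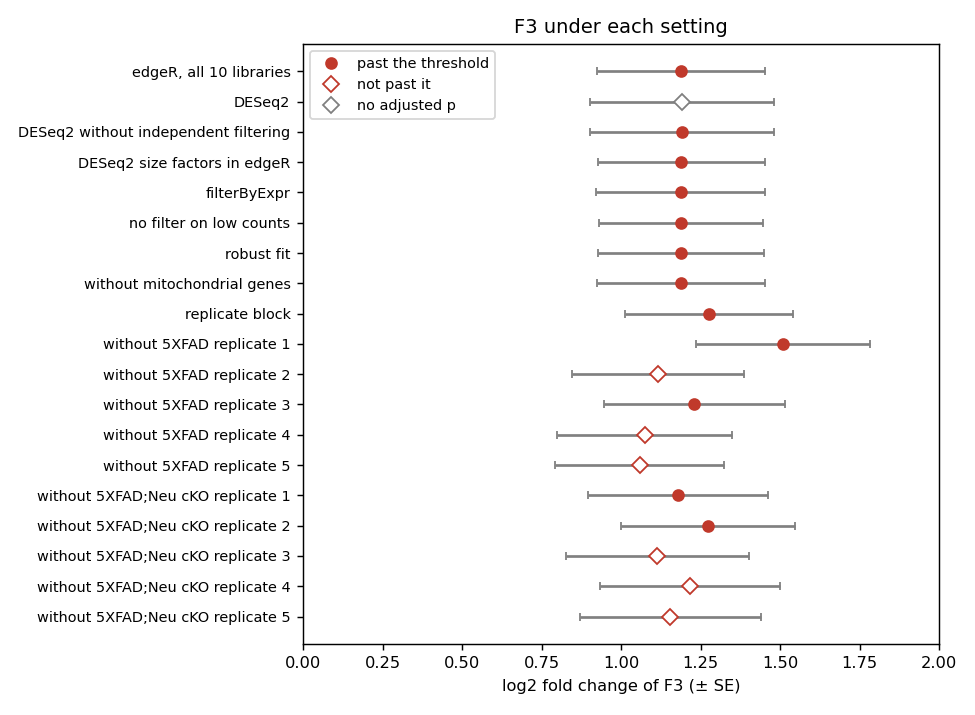
Log2 fold change of F3 in libraries labelled 5XFAD;Neu cKO against 5XFAD (horizontal axis, bars ± standard error) under each setting, with filled circles for fits in which F3 was past the threshold, open diamonds for those in which it was not and a grey diamond where DESeq2 gave no adjusted p. All values lie between 1.06 and 1.51, and 6 of the 10 fits that left out a library have open diamonds.

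The level of F3 was also set against the cells known to express it. The 12 astrocyte markers summed to 4653 to 5412 CPM in 5XFAD and 4519 to 5201 CPM in 5XFAD;Neu cKO libraries, ranges that overlapped, with Slc1a2 and Aldoc the most abundant. Of these 12 markers 0 passed the threshold in edgeR or DESeq2, which gave 1 of them no adjusted p. In edgeR 3 had an unadjusted p under 0.05, beside 7.95% of all genes tested. In log2 fold change 11 lay below 0, the median being -0.13 beside -0.00056 over all genes tested. Per 1000 CPM of astrocyte markers, F3 was at 2.51, 1.08, 1.78, 1.04 and 0.908 CPM in the 5XFAD group and at 3.38, 2.64, 4.26, 3.26 and 4.13 CPM in the 5XFAD;Neu cKO group. On this scale the lowest 5XFAD;Neu cKO library, at 2.64, lay just above the highest 5XFAD library, at 2.51, and the mean was 2.41 times as high. The mean of the summed markers in 5XFAD;Neu cKO was 0.961 of that in 5XFAD, which raises F3 on this scale. F3 was chosen from this contrast, and the share of all genes without overlap on this scale was not computed. Red cell markers summed to 51.4, 6.34, 31.8, 22.7 and 10.3 CPM in the 5XFAD group and 211, 54.6, 46.9, 70.5 and 86.6 CPM in the 5XFAD;Neu cKO group. The 5XFAD library highest in F3 was also highest in these markers, whereas the 5XFAD;Neu cKO library highest in F3 was the lowest in them. Their part in the result for F3 was not tested. Without mitochondrial genes F3 had a log2 fold change of 1.19 and was past the threshold.

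Tfpi (ENSMUSG00000027082, chromosome 2, 84263195 to 84307164, minus strand), the inhibitor of the tissue factor pathway, had the lowest mean of the 7 genes over all 10 libraries, though not in the 5XFAD group, where F2r was lower. Its level was 5.81, 2.11, 5.03, 3.36 and 4.71 CPM in the 5XFAD group and 2.62, 4.23, 2.76, 3.03 and 5.17 CPM in the 5XFAD;Neu cKO group, and the range of the first group held all libraries of the second. The log2 fold change was -0.24 (SE 0.44). These values rest on 9 to 37 counts per library, where counting alone gives a spread of 22.2% to 23.4% of the mean.

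The ratio of F3 to Tfpi within a library, chosen after its values were seen, was 2.33, 2.78, 1.65, 1.50 and 0.952 in the 5XFAD group. In the 5XFAD;Neu cKO group it was 6.71, 3.04, 7.43, 5.22 and 3.61. The lowest ratio of the second group lay just above the highest of the first, and the means were 5.20 ± 1.90 and 1.84 ± 0.718 (SD, n = 5). That lowest ratio rests on 70 counts of F3 and 23 of Tfpi, and that highest ratio on 25 and 9. F3 was chosen from this contrast, and the share of gene pairs whose ratio does not overlap was not computed. The gap therefore supports nothing further. The mean level of Tfpi was 4.20 CPM in the first group and 3.56 CPM in the second, beside 7.45 and 17.1 CPM for F3.

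**Figure D3:**
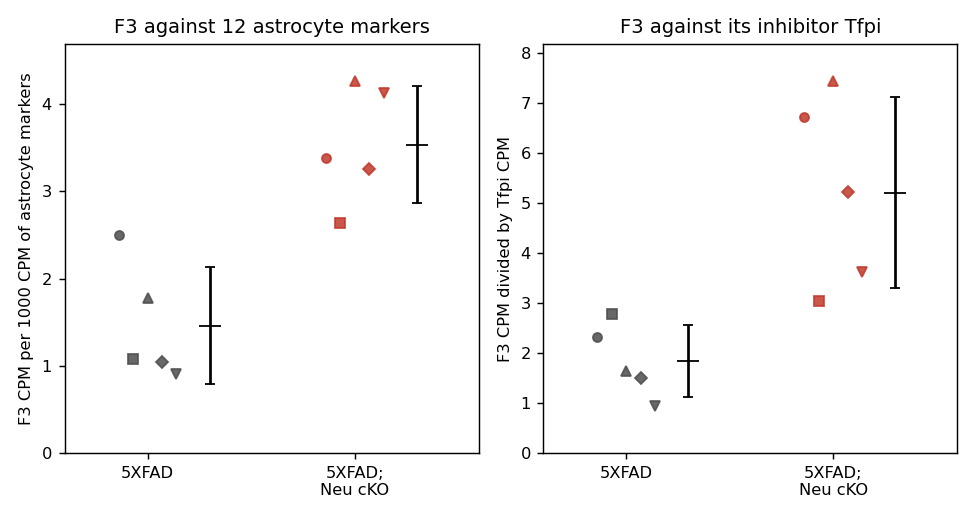
F3 level per 1000 CPM of 12 summed astrocyte markers (left) and F3 level divided by Tfpi level (right) in each library, with vertical axes from 0, symbols for the replicate number and bars for mean ± SD. In both panels the lowest 5XFAD;Neu cKO library (red), at 2.64 on the left and 3.04 on the right, lies just above the highest 5XFAD library (grey), at 2.51 and 2.78. F3 was chosen from this contrast, and how often other genes or pairs separate on these scales was not computed.

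Thbd (ENSMUSG00000074743, chromosome 2, 148216045 to 148250201, minus strand), which encodes thrombomodulin, was at 9.11, 7.74, 7.61, 6.15 and 4.26 CPM in the 5XFAD group. It was at 6.92, 7.91, 6.70, 12.5 and 12.2 CPM in the 5XFAD;Neu cKO group, where replicates 4 and 5 lay above all 5XFAD libraries and the other 3 lay within their range. The log2 fold change was 0.40 (SE 0.30). Of 12 endothelial markers 0 passed the threshold in edgeR, beside 0.218% of all genes tested. DESeq2 called 0 as well, but gave 6 of the 12 no adjusted p. At an unadjusted edgeR p under 0.05 there were also 0, beside 7.95% of all genes tested. The summed level of these markers was 301.6 to 382 CPM in 5XFAD and 335 to 369 CPM in 5XFAD;Neu cKO libraries.

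Plat (ENSMUSG00000031538, chromosome 8, 23247709 to 23272871, plus strand), which encodes tPA, had the second largest difference of the 7 genes. Its level was 10.5, 6.34, 13.4, 7.08 and 15.0 CPM in the 5XFAD group and 16.1, 16.2, 20.7, 17.5 and 10.3 CPM in the 5XFAD;Neu cKO group. As with F3, 4 of the 5 libraries labelled 5XFAD;Neu cKO lay above every 5XFAD library, and replicate 5 fell within the 5XFAD range. The log2 fold change was 0.62 (SE 0.25), and the gene did not pass the threshold. Leaving out single libraries gave values between 0.49, when 5XFAD replicate 2 was omitted, and 0.77, when 5XFAD replicate 5 was.

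Serpine2 (ENSMUSG00000026249, chromosome 1, 79763323 to 79839144, minus strand), the gene of protease nexin-1, was the most abundant of the 7 and had a log2 fold change of -0.25 (SE 0.10). It was at 204, 225, 162, 178 and 184 CPM in the 5XFAD group and at 163, 192, 139, 155 and 150.1 CPM in the 5XFAD;Neu cKO group. Of the second group 3 libraries lay below every 5XFAD library, and the other 2 lay within the 5XFAD range. It did not pass the threshold under any of the settings run. Its counts of 819 to 1189 per library would give a spread of 3.19% of the mean by counting alone, and the SD was 12.6% to 12.9% of it.

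Serpini1 (ENSMUSG00000027834, chromosome 3, 75464800 to 75550802, plus strand), the gene of neuroserpin, was nearly level between the groups. Its values were 128, 131, 165, 122 and 138 CPM in the 5XFAD group and 165, 115, 149.7, 122 and 139 CPM in the 5XFAD;Neu cKO group. The means were 137 ± 16.8 and 138 ± 20.4 CPM (SD, n = 5), with a log2 fold change of 0.01 (SE 0.10). Its sign changed with the library left out, being -0.06 when 5XFAD;Neu cKO replicate 1 was omitted and 0.09 when 5XFAD replicate 3 was. The ratio of Plat to its inhibitor Serpini1 was 0.0482 to 0.109 in 5XFAD and 0.0745 to 0.143 in 5XFAD;Neu cKO libraries, ranges that overlapped.

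F2r (ENSMUSG00000048376, chromosome 13, 95737382 to 95755177, minus strand), the gene of the thrombin receptor PAR1, was at 3.68, 1.41, 6.11, 3.54 and 5.39 CPM in the 5XFAD group and 5.80, 4.97, 8.80, 4.04 and 1.72 CPM in the 5XFAD;Neu cKO group. The groups overlapped over most of their range, with a log2 fold change of 0.32 (SE 0.43). Its counts ran from 6 to 67 per library, and its spread was the widest of the 7 genes in 5XFAD;Neu cKO, at 51.0% of the mean. Leaving out single libraries gave log2 fold changes between 0.01, when 5XFAD;Neu cKO replicate 3, the highest, was omitted, and 0.54, when 5XFAD;Neu cKO replicate 5, the lowest of its group, was.

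Ordered by the mean over all 10 libraries, Serpine2 was at 175 CPM, Serpini1 at 138, Plat at 13.3, F3 at 12.3, Thbd at 8.11, F2r at 4.55 and Tfpi at 3.88 CPM. Both serpins lay above the other 5 genes in every library. Serpine2 was above Serpini1 in 7 of 10 libraries, and their ranges overlapped. Plat and F3 did not differ beyond their spread, with Plat the higher in 7 of 10 libraries, and neither did F2r and Tfpi, with F2r the higher in 7 of 10. F3 was above Thbd in 8 of 10 libraries and above Tfpi in 9. By group means, the order of Plat and F3 and that of F2r and Tfpi turned between the groups. Plat was at 10.5 CPM and F3 at 7.45 CPM in 5XFAD, against 16.2 and 17.1 CPM in 5XFAD;Neu cKO. F2r was at 4.03 CPM and Tfpi at 4.20 CPM in 5XFAD, against 5.06 and 3.56 CPM in 5XFAD;Neu cKO. In single libraries the more frequent order was the same in both groups. F3 was above Plat in 1 of 5 5XFAD and 2 of 5 5XFAD;Neu cKO libraries, and F2r above Tfpi in 3 of 5 and 4 of 5.

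The 7 genes were then compared with each other within the groups, a measure that does not use the contrast between them. For this the mean of its group was subtracted from each log2 CPM (prior count 2), and the 21 pairs were tested with an exact two-sided permutation of the libraries within each group. Plat and F2r varied together over the 10 libraries, with Pearson's r = 0.875 (exact permutation p = 0.00146, adjusted over the 21 pairs 0.0306) and Spearman's rho = 0.770 (exact permutation p = 0.0136, adjusted 0.286), so that the rank measure did not pass. Both genes were lowest in 5XFAD replicate 2 and in 5XFAD;Neu cKO replicate 5 of their groups. Without these 2 libraries, which lay farthest from the median of Plat, r was 0.694 over 8 libraries (exact permutation p = 0.0538), so the relation rests on them in part. The share of all gene pairs that reach such an r in these libraries was not computed. Genes of a library share its preparation and depth, and the part of these in r was not tested. Of the other 20 pairs 0 passed by either measure after adjustment, with 0 by Pearson's r and 1 by Spearman's rho at an unadjusted permutation p under 0.05, and for F3 the values of r ran from -0.166 with Serpine2 to 0.491 with Thbd. Those of F3 depended on 5XFAD replicates 1 and 5, farthest from its median. Without them r over 8 libraries was -0.677 with Serpine2 (exact permutation p = 0.110) and 0.0350 with Thbd (exact permutation p = 0.953). With Serpini1 it was 0.820 (exact permutation p = 0.0194, not adjusted), where it had been 0.301 over all 10. Such a p was computed for each of the 21 pairs, so this unadjusted value supports no relation.

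**Figure D4:**
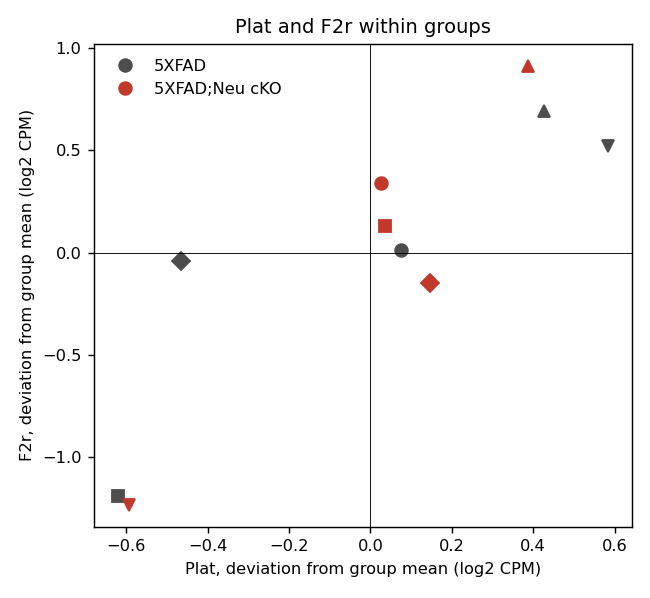
Deviation of F2r (vertical axis) against that of Plat (horizontal axis) from the mean of their own group, in log2 CPM, for 5 libraries labelled 5XFAD (grey) and 5 labelled 5XFAD;Neu cKO (red), with the symbol giving the replicate number. The 2 points at the lower left are 5XFAD replicate 2 and 5XFAD;Neu cKO replicate 5, without which Pearson's r goes from 0.875 to 0.694.

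Among 6264 genes with a mean of at least 20 CPM, those whose deviations from the group mean followed F3 most closely over the 10 libraries were Lrp3 (r = 0.945), Colgalt1 (0.931), Smarcc2 (0.930), Pde4b (0.892) and Unc5b (0.888). These are the highest of many values from few libraries, which share library preparation and depth, and they are given as a description. None of the 5 passed the threshold between the groups in edgeR, with log2 fold changes from -0.07 to 0.31 and adjusted p-values from 0.771 to 0.982. With a minimum of 5 CPM, 3 of the 5 were kept.

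Other genes of the clotting and plasmin system were read from a list of 49 genes, of which 32 were tested and 17 had a total of 10 counts or less. In edgeR 0 of the 32 passed between the groups at an adjusted p under 0.05, where 0.218% of all genes did. At an unadjusted p under 0.05 there was 1 of 32, where 7.95% of all genes lay, and DESeq2 called 0, having given 25 of the 32 no adjusted p. The median log2 fold change was -0.14, with 12 higher and 20 lower, beside -0.00056 over all genes tested. The list was sparsely counted, with a mean under 5 CPM in 16 of the 32.

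**Figure D5:**
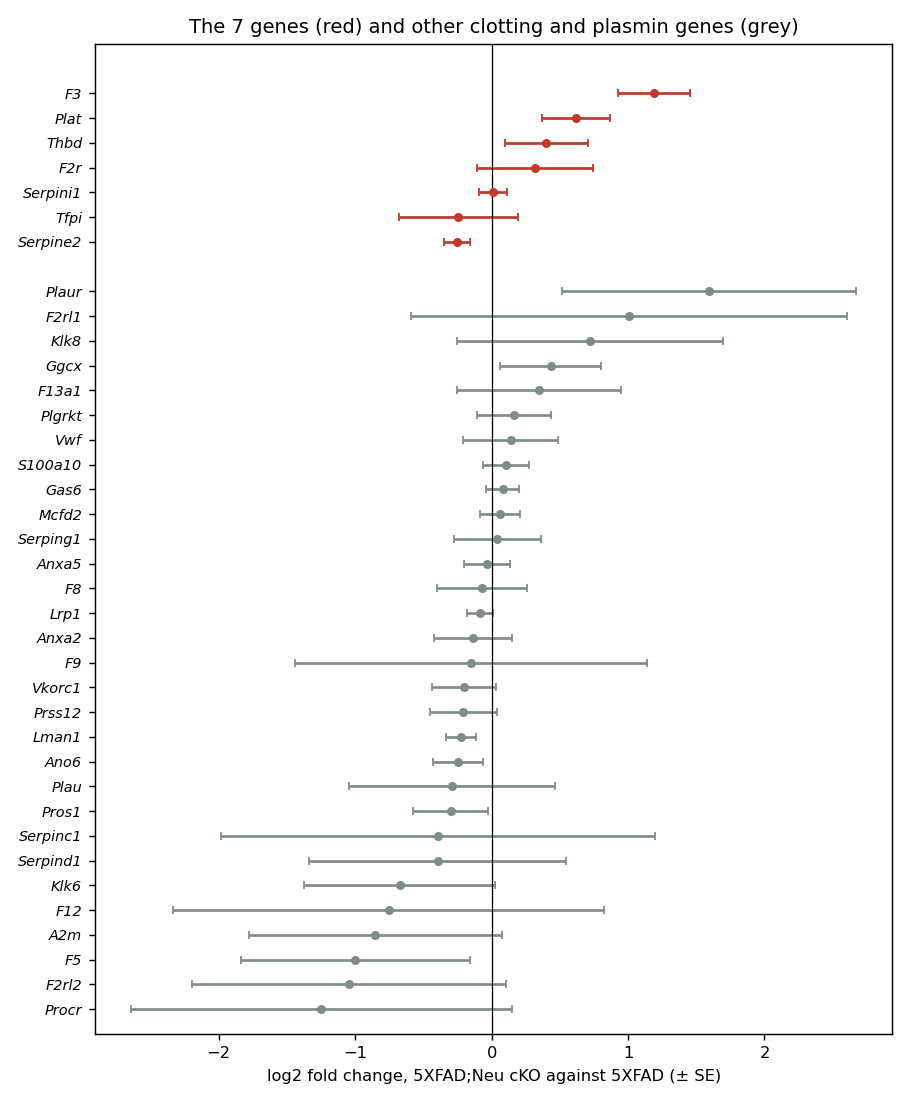
Log2 fold change in libraries labelled 5XFAD;Neu cKO against 5XFAD (horizontal axis, bars ± standard error) for the 7 genes (red) and 30 of the 32 other clotting and plasmin genes tested (grey). F2rl3, which no 5XFAD library counted, is not among those drawn. F3 at 1.19 stands to the right of the other red points, and grey genes farther from 0 have wide bars.

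The factors that circulate in plasma were scarce. Of 16 clotting factor genes 10 had a total of 10 counts or less, prothrombin (F2) and factor X (F10) among them, and plasminogen (Plg) likewise. In all, 14 genes of the list were counted 0 times, which in 57717777 counted reads allows a level of up to 0.0520 CPM for counting error only. Of the 6 clotting factor genes tested 2 were higher and 4 lower in the 5XFAD;Neu cKO group, with a median log2 fold change of -0.11. The 3 most abundant genes of the list were Lrp1, Lman1 and Gas6. Lrp1, a receptor that takes up protease and serpin complexes, was at 158 ± 7.74 CPM in 5XFAD and 149 ± 19.3 CPM in 5XFAD;Neu cKO (log2 fold change -0.08, SE 0.09, edgeR adjusted p = 0.922). Lman1, a cargo receptor for factors V and VIII, was at 81.8 ± 5.30 and 69.9 ± 9.92 CPM (log2 fold change -0.22, SE 0.11, edgeR adjusted p = 0.631). Gas6, a ligand that needs vitamin K, was at 57.3 ± 8.32 and 60.8 ± 4.97 CPM (log2 fold change 0.08, SE 0.12, edgeR adjusted p = 0.956).

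Among genes related to the 7, Plaur, the gene of the urokinase receptor, was counted 0 to 7 times per 5XFAD library and 3 to 12 times per 5XFAD;Neu cKO library (log2 fold change 1.59, SE 1.08, edgeR adjusted p = 0.810). Without 5XFAD replicate 4, which held 7 of its counts, the value was 2.59. F2rl3, the gene of the thrombin receptor PAR4, was counted 0 times in 5XFAD, 6 times in 5XFAD;Neu cKO replicate 1, 5 times in replicate 5 and 0 times in the other 3, with an adjusted p of 0.553 in edgeR. Ano6, which encodes a scramblase that exposes procoagulant phospholipid, was at 24.8 ± 2.79 and 21.0 ± 4.98 CPM (edgeR adjusted p = 0.841), and Ggcx, the vitamin K dependent carboxylase, at 5.32 ± 2.75 and 7.25 ± 3.91 CPM (edgeR adjusted p = 0.871). None of these genes passed the threshold.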

How the data were processed

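Cortical RNA of 10 mice was measured in 10 libraries, 5 per group. The authors clipped adapter and poly(A) sequence, mapped the reads to GRCm39 with STAR, and deposited the raw htseq-count output, which holds whole-number counts per Ensembl gene. The submitters' notes give STAR 2.7.3a and HTSeq 0.9.1. The strand setting is not given in the sources used here, so a gene and an antisense partner cannot be told apart. Reads on no gene (31.3% to 39.9%) and ambiguous reads (0.428% to 0.467%) entered no test. Symbols and places came from GENCODE (52610 of 53700 identifiers), a later release than the authors', and promoters from RefSeq.

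Genes were kept if their total was above 10, the study's own limit, and groups compared with edgeR 4.0.16 in R 4.3.3 (TMM, glmQLFit, glmQLFTest, group as the only term, Benjamini-Hochberg over 19268 genes, threshold 0.05). The standard error is the log2 fold change over the root of the F statistic. The study used DESeq2, here version 1.42.0 and an alternative. The members, lists and tests were chosen with earlier results of these data known. Named genes were the 7 members, Mylip, the genes most like F3 and, of the other clotting and plasmin genes, those past the threshold, the 3 with the smallest p in each direction and the 3 most abundant; 1 gene that this rule named is not reported here. Alternatives were DESeq2, its size factors in edgeR, filterByExpr, no filter, a robust fit, no mitochondrial genes, a replicate block and each library left out. Steps were tested on simulated data. Of 20 pairs of libraries within groups, the closest had a chi-square of 5.87 per degree of freedom, so none was a repeat. The labels name separate samples and not the animals, and p-values measure the spread between these samples.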

Additional observations from a re-analysis of the deposited data

How the results depend on the processing

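Over all genes, edgeR called 42, and DESeq2 called 73, no filter on low counts 103 and the replicate block 112. Fits that each left out 1 library called between 26, when 5XFAD replicate 2 was omitted, and 72, when 5XFAD;Neu cKO replicate 1 was. Of the 7 genes, 1 passed in edgeR, 0 in DESeq2, whose filter left F3 without an adjusted p, and 0 to 1 when single libraries were omitted. Of the clotting and plasmin list 0 passed under every setting run. Of the 5 genes most like F3, 3 were kept with a minimum of 5 CPM. Deviations of same-numbered libraries correlated at -0.0809 to 0.0404, so the numbers were not taken to pair the samples, and 0 of 5 controls correlated best with their own number. F3 passed under the block as well, with a log2 fold change of 1.27. Depth limits Tfpi, F2r and the 16 sparse list genes most, and their intervals allow sizeable differences.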
